A study of Homo sapiens with 8 samples.

Results

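The genes described here are 3 bone morphogenetic protein (BMP) ligands, BMP2, BMP4 and BMP6, and 6 genes whose products restrain BMP signalling outside the cell or at its membrane: NOG, GREM1, FST, CHRD, SMOC1 and BAMBI. They were taken by symbol from a count table of 58735 genes, in which all 9 were found once, and 8 of the 9 passed the filter on low counts. The cells were SRA01/04, an immortalised human line of lens epithelial origin. One group of 4 libraries came from cells with a control hairpin (shControl), labelled as wild type in genotype. The other 4 came from cells labelled as a Smurf1 knockdown (shSmurf1). Both groups had been kept for 48 h with TGF-β2 at 20 ng/ml, so each difference below is one under TGF-β2, and no untreated cells enter it. The labels call the libraries biological replicates. They name no rescue and give neither the number of hairpins or clones behind the shSmurf1 libraries nor whether cultures were grown apart, so a p-value speaks of the spread among libraries, which may be technical. With no rescue and no number of hairpins given, the knockdown and other differences between the groups of cells cannot be told apart.

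BMPs are secreted dimers that bind paired type I and type II serine/threonine kinase receptors, which phosphorylate SMAD1, SMAD5 and SMAD9. Noggin (NOG), gremlin 1 (GREM1), chordin (CHRD) and follistatin (FST) bind ligands directly and keep them from their receptors, SMOC1 is a matrix-associated inhibitor of BMP signalling, and BAMBI is a transmembrane pseudoreceptor that lacks the kinase domain. SMURF1 is a HECT ubiquitin ligase that acts on BMP-pathway SMADs and receptors. In the lens, BMP signalling is needed for lens induction and fibre differentiation, and in cultured lens epithelial cells it is known to oppose responses to TGF-β.

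SMURF1 itself lay between 85.8 and 93.3 CPM (counts scaled to a common library size by TMM) in shControl and between 50.4 and 51.4 CPM in shSmurf1, with no overlap, at 57.5% of control by edgeR's fit. Its exons share 735 bases with TRRAP on the other strand. Library totals ranged from 14688651 to 17030394 counts. Of 14 lens genes listed as markers, 3 were high enough to test, PAX6, SIX3 and BFSP1, whereas FOXE3, PITX3, CRYAA and MIP had 10, 9, 4 and 3 counts in all 8 libraries together. The summed level of the lens list, in TPM (counts scaled by exon length and library size), was 36.0 to 40.3 in shControl and 28.3 to 33.6 in shSmurf1. That of 5 fibroblast genes was 217 to 233 in shControl and 164 to 191 in shSmurf1, with COL1A2 lower and LUM higher. Of the 3 tested lens genes only SIX3 passed, with means of 24.9 TPM in shControl and 18.9 in shSmurf1. PAX6 stood at 6.21 and 6.19 TPM. Of the fibroblast genes, COL1A2 had 84.8 TPM in shControl and 41.1 in shSmurf1, and LUM 0.365 and 2.72. THY1 (139 and 137 TPM) and PDGFRA did not pass. Both sums moved in the direction of most members, and their part in the results was not tested. Surface epithelium, endothelial and leukocyte genes summed to at most 0.420, 1.59 and 0.738 TPM in any library, and pigment cell genes to 3.64 to 6.46 TPM. In such bulk libraries, fewer cells expressing a gene and less RNA per cell cannot be told apart.

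Of the 8 members tested, 6 fell in shSmurf1, 1 rose and 1 did not pass the test. SMOC1 fell furthest, FST, BMP4 and NOG fell to between 49.99% and 53.2% of control, BAMBI to 60.3% and GREM1 to 70.1%, while CHRD rose 1.30-fold and BMP6 did not pass. Calls are those of edgeR's quasi-likelihood test at a Benjamini-Hochberg adjusted p under 0.05 over 15647 genes. By that rule 22.5% of all genes tested changed, 10.3% higher and 12.2% lower. The median log2 fold change was −0.82 over the 8 members and 0.01 over all genes. The members were chosen with earlier results of these data known, so this contrast is a description only. The 2 groups of libraries did not overlap for 7 of the 8 members, against 23.7% of all genes. Over 16 other settings the same 7 members passed in every one, in the same directions. The count over all genes was less steady, since leaving out shSmurf1 replicate 3 raised it from 3527 to 5348.

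**Figure D1:**
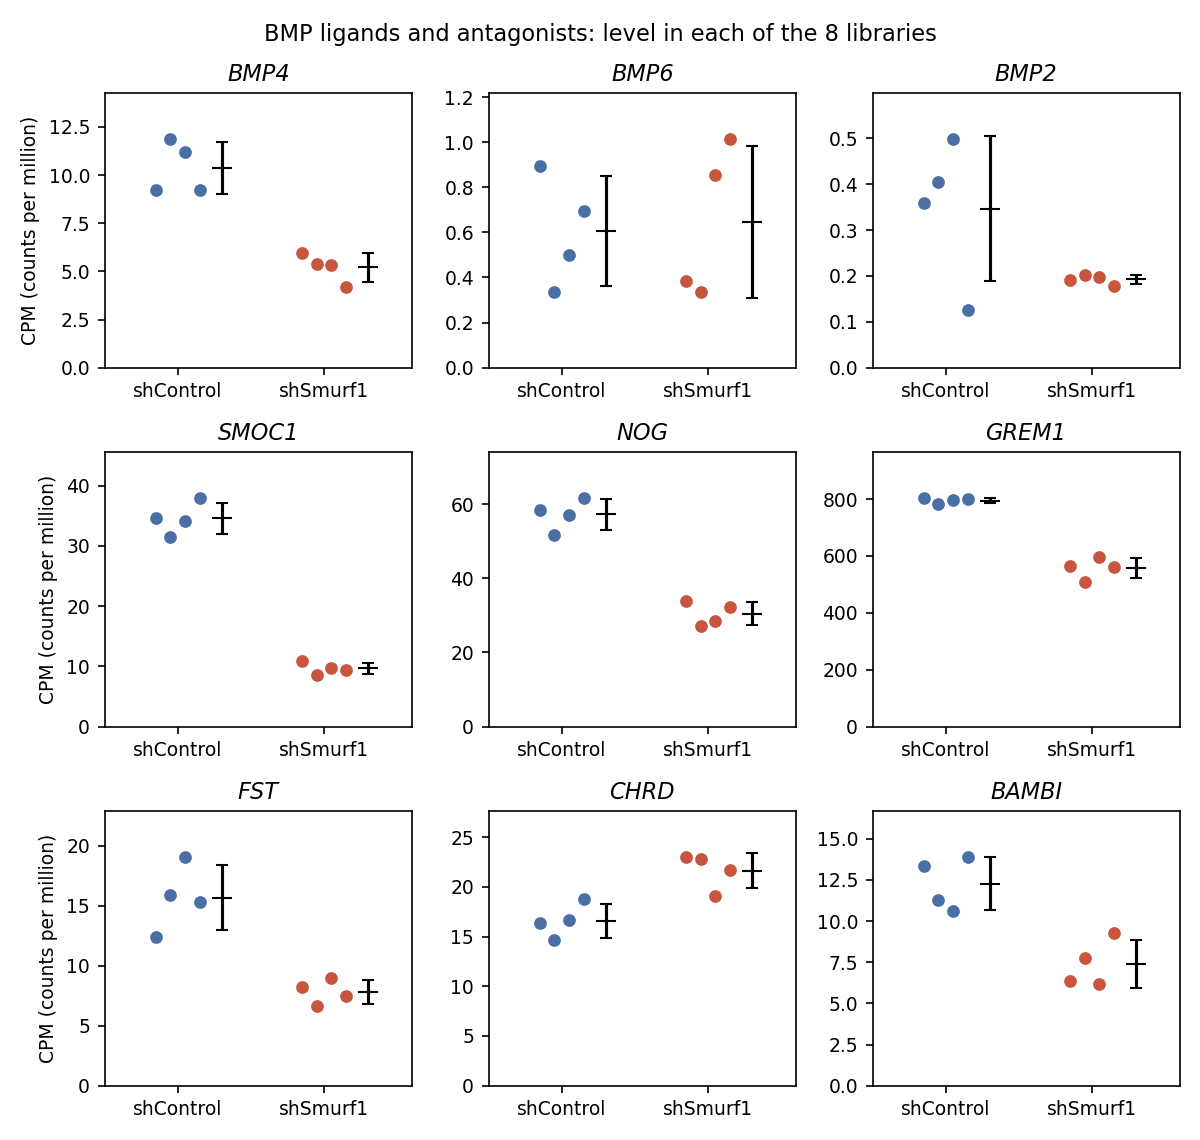
Level of each member in CPM (vertical axes from 0, one scale per panel) in the 4 shControl and 4 shSmurf1 libraries, with the mean and SD of each group beside the points. The groups lie apart in the panels of BMP4, SMOC1, NOG, GREM1, FST, CHRD and BAMBI and overlap in those of BMP6 and BMP2.

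BMP4, the one ligand of the 3 expressed well above the filter, fell. It is a ligand of the lens placode and ciliary body in development. Its levels in shControl replicates 1 to 4 were 9.25, 11.9, 11.2 and 9.21 CPM, and in shSmurf1 5.96, 5.37, 5.33 and 4.17 CPM. The highest shSmurf1 library lay below the lowest shControl library. BMP4 had a log2 fold change of −1.0 ± 0.14 (SE, n = 4 each; edgeR adjusted p = 3.57e-05), or 50.1% of control.

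BMP6, a ligand known for its part in iron homeostasis, was near the limit of the test, with 5 to 15 counts per library in shControl and 5 to 17 in shSmurf1. In CPM it stood at 0.895, 0.337, 0.498 and 0.694 in shControl and at 0.384, 0.336, 0.855 and 1.01 in shSmurf1, so the groups overlapped. Its log2 fold change was 0.09 ± 0.44 (SE; edgeR adjusted p = 0.912), with an approximate 95% interval from −0.76 to 0.95. That interval holds changes of moderate size in either direction, which are not detectable at this depth. Leaving out shControl replicate 2, or shSmurf1 replicate 3 or 4, turned the sign of the estimate, to −0.096, −0.055 and −0.22.

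BMP2, an osteogenic ligand close to BMP4 in sequence, was too low to test. It had 6, 6, 8 and 2 counts in shControl and 3 counts in each shSmurf1 library. Pooled over each group this was 0.346 CPM (exact Poisson 95% interval 0.217 to 0.524) in shControl and 0.192 CPM (0.0992 to 0.335) in shSmurf1, intervals that cover counting error only. The intervals overlap, and an exact permutation test over the 8 libraries gave p = 0.143 (two-sided, smallest possible 0.0286). A fall in BMP2 was therefore not detectable at this depth.

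SMOC1 had the largest change of the 9 genes. Its shControl libraries stood at 34.5, 31.5, 34.2 and 37.9 CPM and its shSmurf1 libraries at 10.9, 8.60, 9.80 and 9.36 CPM. The highest shSmurf1 library lay 20.7 CPM below the lowest shControl library. On the log2 scale SMOC1 changed by −1.84 ± 0.094 (SE; edgeR adjusted p = 4.21e-11), which leaves 28.0% of control.

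NOG, which encodes a cystine-knot protein that blocks both receptor-binding surfaces of a BMP dimer, fell as well. The shControl libraries had 58.4, 51.6, 57.2 and 61.6 CPM and the shSmurf1 libraries 33.8, 27.2, 28.4 and 32.2 CPM. The lowest shControl library was 17.7 CPM above the highest shSmurf1 library. For NOG the log2 fold change was −0.91 ± 0.079 (SE; edgeR adjusted p = 7.72e-08).

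GREM1 is a secreted antagonist of the DAN family that binds BMP2 and BMP4 and is known as a gene raised in fibrotic tissue. In CPM, which is not scaled by gene length, GREM1 was by far the highest member. It stood at 803, 781, 796 and 799.5 CPM in shControl and at 564, 510, 595 and 560.0 CPM in shSmurf1. The shControl libraries varied by 1.21% (coefficient of variation) and the shSmurf1 libraries by 6.35%, against 0.890% and 1.07% from counting alone. GREM1 had a log2 fold change of −0.51 ± 0.048 (SE; edgeR adjusted p = 2.25e-07). Its exons share 188 bases with AC090877.2 on the other strand, a long non-coding RNA with 52 to 134 counts per library.

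FST, which binds activins tightly and BMPs more weakly, had a wider spread in shControl, at 12.4, 15.9, 19.1 and 15.3 CPM, than in shSmurf1, at 8.20, 6.65, 9.01 and 7.45 CPM. Even so, the lowest shControl library exceeded the highest shSmurf1 library. FST changed by −1.0 ± 0.13 (SE, log2 scale; edgeR adjusted p = 1.69e-05), or 49.99% of control.

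BAMBI, the pseudoreceptor and a known target of BMP and TGF-β signalling, stood at 13.4, 11.3, 10.6 and 13.9 CPM in shControl and at 6.34, 7.73, 6.18 and 9.30 CPM in shSmurf1. The shSmurf1 replicate 4 library was nearest to the control range, 1.29 CPM below the lowest shControl library. The log2 fold change was −0.73 ± 0.14 (SE; edgeR adjusted p = 0.000710).

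CHRD, which encodes an antagonist released from its ligands when BMP1 and related proteases cleave it, was the one member to rise. Its shControl libraries had 16.4, 14.6, 16.6 and 18.8 CPM and its shSmurf1 libraries 23.0, 22.8, 19.1 and 21.7 CPM. The groups were separate by a narrow margin, since shSmurf1 replicate 3 lay 0.333 CPM above the highest shControl library. The log2 fold change was 0.38 ± 0.095 (SE; edgeR adjusted p = 0.00631). CHRD had the highest GC content of the members, 64.6% against 39.8% for GREM1, and with each library's trend of expression with GC content removed the log2 fold changes were 0.26 for CHRD (edgeR adjusted p = 0.0180) and −0.44 for GREM1. Its exons share 361 bases with THPO on the other strand, which had 94 counts in all libraries together. CHRD itself had 1057 counts in shControl and 1353 in shSmurf1.

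**Figure D2:**
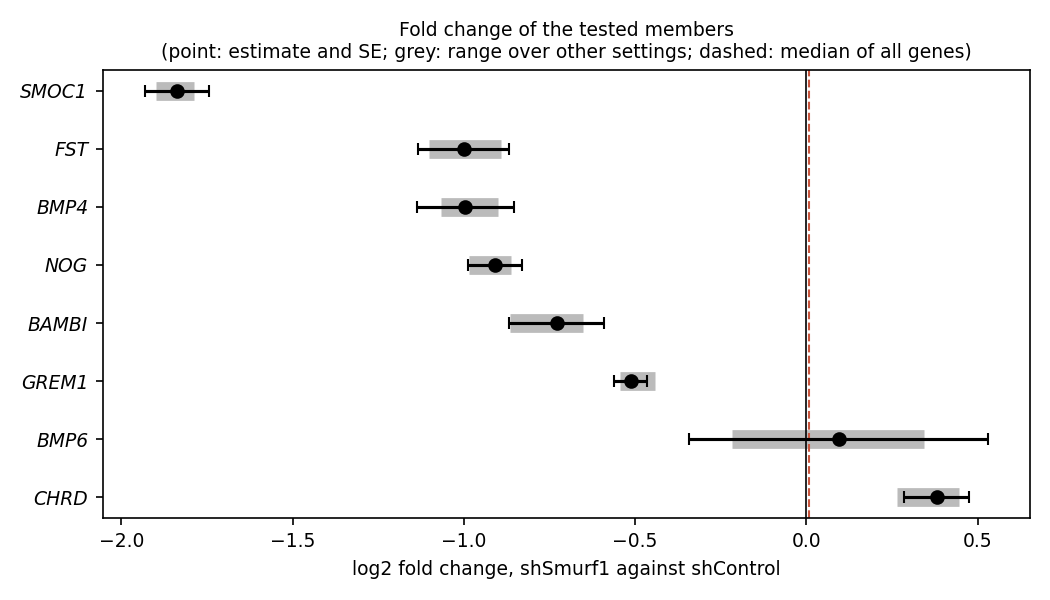
Log2 fold change of shSmurf1 against shControl for the 8 tested members, with the SE as bars, the range over the other settings in grey and the median of all genes as a dashed line. SMOC1 lies at −1.84, the other 5 members that fell between −1.0 and −0.51, and CHRD at 0.38, and among the grey ranges that of BMP6 crosses 0 and the others do not.

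Promoter sequence is shown for the ligand that fell, for the antagonist that fell furthest and for the one member that rose. The letters are the 250 bases before a RefSeq start (GRCh38.p14), 5′ to 3′ on the gene's strand, in windows that hold no exon base of GENCODE 29. Capitals mark CAGAC (the SMAD box, also as GTCTG on the other strand) and GGCGCC (a GC-rich motif bound by SMAD1 and SMAD5, the same on both strands). The stretches are chr14:53955051-53955300 (minus strand) for BMP4, chr14:69879166-69879415 (plus strand) for SMOC1 and chr3:184379804-184380053 (plus strand) for CHRD.
BMP4: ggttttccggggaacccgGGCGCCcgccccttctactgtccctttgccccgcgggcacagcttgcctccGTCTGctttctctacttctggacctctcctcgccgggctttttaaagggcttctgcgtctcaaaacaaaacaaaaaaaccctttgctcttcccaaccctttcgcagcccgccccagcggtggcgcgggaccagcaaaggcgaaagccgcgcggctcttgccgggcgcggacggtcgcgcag
SMOC1: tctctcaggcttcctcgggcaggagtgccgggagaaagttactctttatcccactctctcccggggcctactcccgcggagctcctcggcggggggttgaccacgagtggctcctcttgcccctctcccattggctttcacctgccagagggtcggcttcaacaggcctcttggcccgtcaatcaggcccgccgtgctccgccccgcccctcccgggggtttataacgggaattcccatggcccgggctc
CHRD: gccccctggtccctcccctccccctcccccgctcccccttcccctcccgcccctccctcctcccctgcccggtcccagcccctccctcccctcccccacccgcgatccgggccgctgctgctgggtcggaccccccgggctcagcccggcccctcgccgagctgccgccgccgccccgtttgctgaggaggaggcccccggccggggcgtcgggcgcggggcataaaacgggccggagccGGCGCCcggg
The BMP4 window holds each motif once, the SMOC1 window holds neither, and the CHRD window holds GGCGCC once. Of 35116 promoter windows of this length in RefSeq, 38% hold CAGAC and 16.4% hold GGCGCC. The table gave 10 starts for 7 of the 9 members, and CAGAC was in 5 and GGCGCC in 4 of these 10 windows. Exon bases of GENCODE genes lie in 6 of the 10 windows, among them 4 of the 5 with CAGAC and 2 of the 4 with GGCGCC. The palindromic SMAD element GTCTAGAC (0.182% of windows) and the TEAD motif GGAATG (11.9%, either strand) were in 0 of the 10. BAMBI had CAGAC at 2 places and GGCGCC at 3, and FST had neither. GREM1 had both motifs, each at 2 places, before one start and CAGAC once before another. Exon bases of GENCODE genes make up all 250 bases of each GREM1 window, 179 of the BAMBI window and 220 of the FST window. A match describes the letters only. BMP4 has 2 further starts. The window chr14:53954489-53954738 holds neither motif, and chr14:53953396-53953645 holds CAGAC once and no GGCGCC. The starts used for BMP4 and SMOC1 lie inside the GENCODE gene models, not at their first base.

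Per exon length, GREM1 was the most abundant member in shControl (211 ± 3.51 TPM, mean ± SD, n = 4), followed by NOG (117 ± 8.11), SMOC1 (30.6 ± 2.23), BAMBI (20.5 ± 2.38), FST (20.5 ± 3.94), BMP4 (13.1 ± 1.90), CHRD (9.73 ± 0.988), BMP6 (0.841 ± 0.322) and BMP2 (0.374 ± 0.175). In that order BAMBI and FST overlapped, as did BMP6 and BMP2, and the other neighbours did not. In shSmurf1, GREM1 (144 ± 5.97 TPM) and NOG (60.8 ± 6.36) kept ranks 1 and 2, while CHRD (12.4 ± 1.27) had rank 3 and SMOC1 (8.36 ± 0.766) rank 6. From CHRD through BAMBI (12.1 ± 2.52) and FST (9.95 ± 1.06) to SMOC1, each overlapped the next in order across libraries. Within each of the 4 libraries, SMOC1 lay below CHRD, BAMBI and FST and above BMP4, so its rank 6 held. The order of CHRD, BAMBI and FST differed between libraries and is not settled. BMP4 followed at 6.39 ± 0.927 TPM. The length used for GREM1, 14606 bases, joins the exons of all its transcripts, so its TPM is a low estimate if cells use a shorter one.

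**Figure D3:**
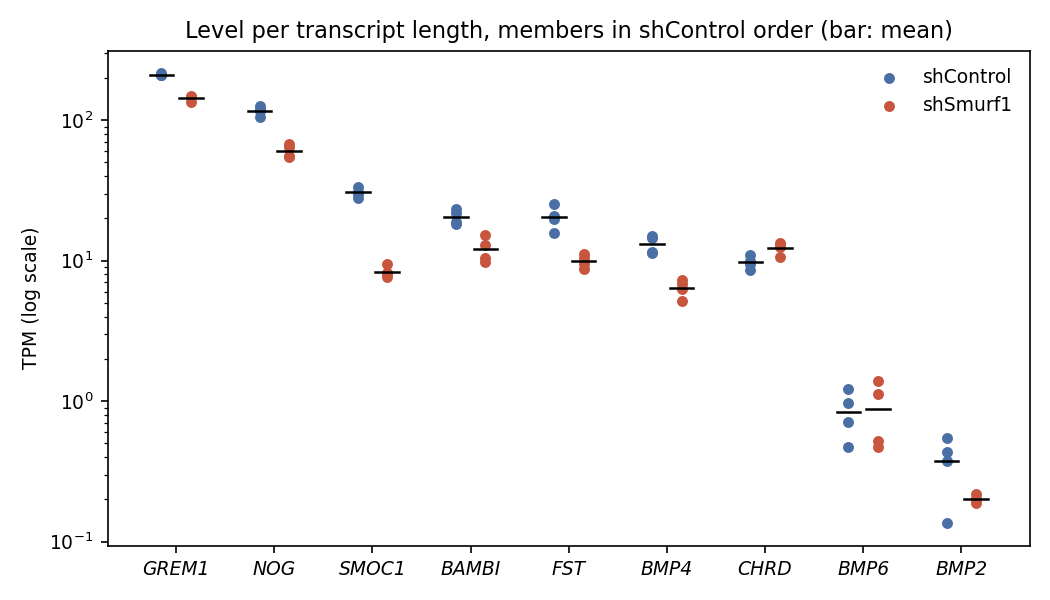
Level per exon length in TPM (log scale) of the 9 members in the 4 shControl and 4 shSmurf1 libraries, with the mean as a bar, ordered by shControl. SMOC1 goes from rank 3 (30.6 TPM) to rank 6 (8.36 TPM), and CHRD from rank 7 (9.73 TPM) to rank 3 (12.4 TPM).

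Summed over BMP2, BMP4 and BMP6, ligand transcripts made up 13.0, 15.9, 15.7 and 12.6 TPM in shControl and 8.05, 7.46, 7.66 and 6.72 TPM in shSmurf1. The 5 secreted antagonists (NOG, GREM1, FST, CHRD and SMOC1) summed to 380, 372, 402 and 401 TPM in shControl and to 247, 221, 234 and 240.5 TPM in shSmurf1. Both sums were thus lower in every shSmurf1 library than in any shControl library, and these are sums over the members given as a description, without a test. Antagonist per ligand transcript came to 27.5 ± 3.73 in shControl and 31.7 ± 2.79 in shSmurf1 (mean ± SD, n = 4 each), and the libraries of the 2 groups overlapped. This ratio covers members only. The further ligands listed below summed to 68.8 to 73.6 TPM in shControl and 61.3 to 67.8 TPM in shSmurf1. The further antagonists and modulators summed to 970 to 1038 TPM in shControl and 924 to 981 TPM in shSmurf1. The share of GREM1 in the antagonist sum was 54.3% ± 1.43 in shControl and 61.2% ± 1.91 in shSmurf1. Without GREM1 the antagonist sum was 178 ± 12.2 TPM in shControl and 91.5 ± 7.67 TPM in shSmurf1.

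Whether the 6 members that fell did so by unequal amounts was asked of the log2 ratio of 2 members within each library, a value that library scaling does not touch. Ratios to CHRD were left out, since a gene that rose without overlap has to part from genes that fell without overlap. The 6 members make 15 pairs, and in 8 of them the ratios of the 2 groups did not overlap. Pairs of other genes that fell were not examined, so this count is a description of these members only. Each of the 8 had p = 0.0286, the smallest that an exact permutation test over 8 libraries can give (two-sided), and a Benjamini-Hochberg adjusted p of 0.0536 over the 15 pairs, so 0 pairs passed at 0.05. Those 8 were the 5 pairs with SMOC1 and the pairs of GREM1 with BMP4, NOG and FST. At that smallest p, passing depends on how many of the 15 pairs do not overlap, not on the size of a difference. That 0 pairs passed therefore does not show that the members fell by equal amounts. The log2 ratio of NOG to SMOC1 was 0.73 ± 0.027 in shControl and 1.65 ± 0.10 in shSmurf1 (SD, n = 4 each), a difference of 0.93 ± 0.053 (SE). That of NOG to GREM1 was −3.80 ± 0.092 in shControl and −4.20 ± 0.14 in shSmurf1, and that of BMP4 to GREM1 −6.27 ± 0.20 and −6.75 ± 0.24.

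Among BMP4, NOG, FST and BAMBI the groups overlapped in every pair. The difference in the ratio of BMP4 to NOG was −0.08 ± 0.20 (SE; exact permutation adjusted p = 0.824), and that of BMP4 to FST −0.0037 ± 0.16. These values do not show that the 4 members fell alike. GREM1 and BAMBI overlapped too (0.23 ± 0.19, adjusted p = 0.476, exact permutation test).

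**Figure D4:**
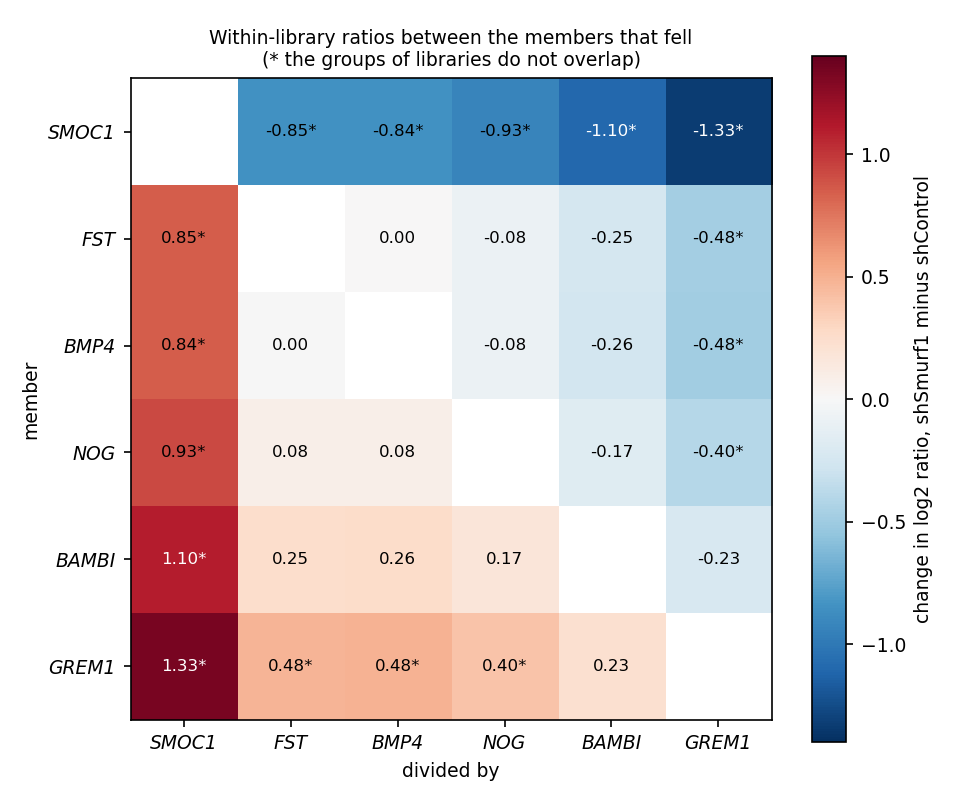
Change in the within-library log2 ratio of the member on the vertical axis to the member on the horizontal axis, shSmurf1 minus shControl, for the 6 members that fell, with a star where the groups do not overlap. The row and column of SMOC1 are starred throughout, and the block of FST, BMP4, NOG and BAMBI has no star. No pair passed after adjustment (smallest adjusted p 0.0536, exact permutation test). For starred pairs that outcome depends on how many pairs are starred, not on the size of a difference.

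By position, the members lie on 8 chromosomes, BMP4 and SMOC1 both on chromosome 14. In GENCODE 29 (GRCh38) the gene models span chr14:53949736-53958761 (minus strand) for BMP4 and, all on the plus strand, chr20:6767664-6780280 for BMP2, chr6:7726797-7881422 for BMP6 and chr14:69854131-70032366 for SMOC1. Those of the other antagonists, also on the plus strand, span chr17:56593699-56595590 for NOG, chr15:32717974-32745107 for GREM1, chr5:53480409-53487134 for FST, chr3:184380073-184390736 for CHRD and chr10:28677342-28682939 for BAMBI. Counts are summed over all exons of a gene, so they do not say which transcript or exon changed. For each, the 20 nearest tested protein-coding genes on each side were read from the same fit. The 40 neighbours of BMP4 had a median log2 fold change of −0.21, with 19 lower and 0 higher, and BMP4 lay at −0.79 relative to that median. After removal of the GC trend this median was −0.15. Around SMOC1 the median was −0.10, with 10 lower and 4 higher, and 0 of the 40 changed by more than SMOC1. The medians around NOG, GREM1, FST, CHRD and BAMBI lay between −0.09 and 0.03. CHRD rose in a stretch where 12 neighbours fell and 0 rose, and 5 of its 40 neighbours changed by more in size. BAMBI, like SMOC1, was exceeded in size by 0 of its 40 neighbours, BMP4 and NOG by 2 each, and GREM1 and FST by 3 each.

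**Figure D5:**
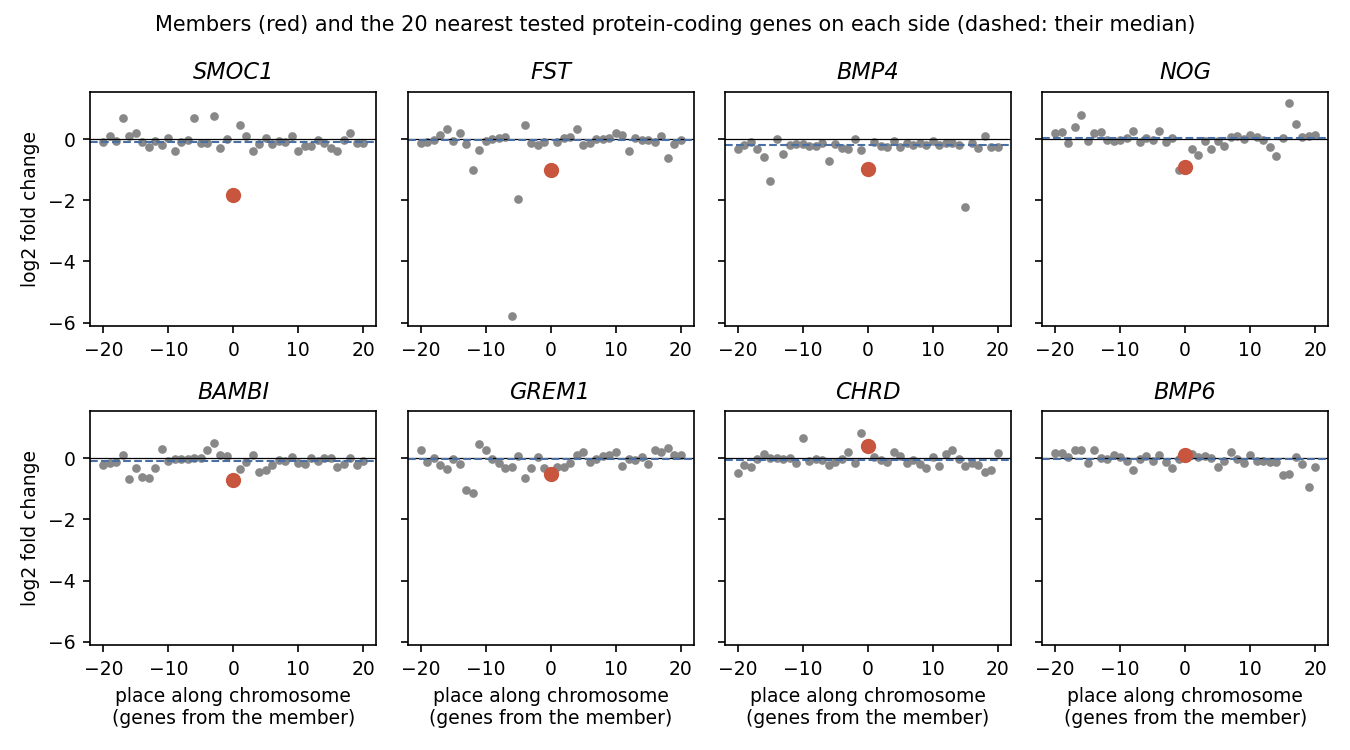
Log2 fold change of each tested member (red) and of the 20 nearest tested protein-coding genes on each side (grey) in chromosomal order, with their median dashed. The neighbours of BMP4 lie mostly below 0, with a median of −0.21, and the members that fell lie below the median of their neighbours.

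The genes whose log2 CPM over the 8 libraries correlated most with SMOC1, among 11218 protein-coding genes above a floor of 2 in mean log2 CPM, were UBE2H and DLST (Pearson r = 0.995 for each). For FST they were CCDC18 and ARMCX2 (0.998 and 0.990), and for BMP4 TFAP2A and FAM129A (0.986 and 0.985). These libraries form 2 groups, so any gene with a similar group difference correlates, and 795, 488 and 492 genes had an r above 0.9 with SMOC1, FST and BMP4. The values are given as a description.

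Other genes of the pathway were read from 4 lists. Of 17 further ligands of the BMP, GDF and activin families, 6 could be tested. GDF11, an activin-type ligand, rose (0.36 ± 0.080 SE on the log2 scale), INHBA, the βA chain of activin and a ligand that FST binds, fell (−0.28 ± 0.074), and 4 did not pass. The highest in CPM of those 4 was BMP8B (0.39 ± 0.15, edgeR adjusted p = 0.0632), whose reads may be split with the near-identical BMP8A. BMP3, BMP5 and BMP7 had 3, 5 and 3 counts in all libraries together.

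Of 27 further antagonists and extracellular modulators, 14 were tested, 3 fell and 1 rose. RGMB, a membrane-anchored BMP co-receptor, fell by 0.47 ± 0.066 on the log2 scale, and BMP1, the protease that cleaves chordin, rose by 0.35 ± 0.066. CHRDL1, a chordin-like antagonist, also fell (106 ± 5.33 to 85.1 ± 1.29 CPM, −0.32 ± 0.053), named after its values were seen. FSTL1, a follistatin-like secreted protein and the highest in CPM of the 10 that did not pass, lay at −0.11 ± 0.050 (edgeR adjusted p = 0.119). The list's median log2 fold change was 0.04, against −0.82 for the members. Members and list were both chosen with earlier results of these data known, so the contrast can follow from the choice.

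Of 14 receptors and SMADs, 13 were tested, with 2 higher and 2 lower. BMPR1B, a type I receptor, had the largest change (2.54 ± 0.760 to 0.564 ± 0.239 CPM, −2.16 ± 0.34), ENG, a co-receptor for BMP9 and TGF-β, rose (0.43 ± 0.050), and so did SMAD6, the inhibitory SMAD of the BMP branch (0.26 ± 0.089). BMPR2, the type II receptor, was the highest in CPM of those that did not pass (−0.0015 ± 0.060). Of 17 listed target genes of BMP signalling, 14 were tested, 3 rose and 4 fell. UNC5B, a netrin receptor, rose (0.82 ± 0.20), while ID4, a helix-loop-helix inhibitor (−0.56 ± 0.14), and TBX2, a T-box repressor (−0.38 ± 0.12), fell, and GATA2 did not pass (0.14 ± 0.082). Over the 4 lists 17 genes changed, 7 higher and 10 lower, and without shControl replicate 2 the count was 11. The share changed in each list was 33.3%, 28.6%, 30.8% and 50%, beside 22.5% of all genes.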

How the data were processed

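Polyadenylated RNA was sequenced in 8 libraries, 4 shControl and 4 shSmurf1, grouped by their labels. The deposited file holds whole-number read counts made by the authors, without normalization. Alignment and counting used HISAT2 (2.0.5) and featureCounts (1.5.0-p3), after CASAVA and fastp, per the submitters' processing notes. The genome build is not given in the sources used here, nor is the annotation. Symbols, positions and exon lengths came from GENCODE 29 (GRCh38), which held all 58735 identifiers. Per the labels' protocols no step marks the strand, so a read in exon bases shared between the strands does not show its gene of origin. Whether the counting assigned such reads to a gene or left them out was not tested.

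Genes were kept by filterByExpr with a minimum count of 10 (15647 genes) and scaled by TMM. Groups were compared by the quasi-likelihood F test of edgeR 4.0.16 in R 4.3.3, two-sided, with no covariate and Benjamini-Hochberg adjustment over all genes. The fit was checked on simulated counts with the same dispersion for every gene and no shift of single libraries. That check does not cover a library that stands apart from its group. The SE was taken as the size of the log2 fold change over the root of F. TPM used joined exon length. Correlations used log2(CPM + 0.5). At 14688651 to 17030394 counts per library, counting error ran from 0.890% (GREM1, shControl) to 11.1% (BMP4, shSmurf1) for members other than BMP2 and BMP6.

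The members, lists and tests were chosen with earlier results of these data known. Named beside the members were, per pathway list, up to 3 changed genes with the largest change and the gene of highest mean log2 CPM that did not pass, and the 2 genes most correlated with each of the 3 members that changed most. One gene that this rule names is not reported here. Alternatives were DESeq2 size factors, library totals alone, DESeq2 1.42.0, limma-voom (limma 3.58.1), no filter, CPM above 1 in at least 4 libraries, a block for replicate number, removal of a GC trend (lowess, span 0.3) and leaving out each library in turn.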

Additional observations from a re-analysis of the deposited data

How the results depend on the processing

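All 7 members that passed kept their direction and passed under each of the 16 alternatives, with log2 fold changes from −1.90 to −1.79 for SMOC1, −1.10 to −0.89 for FST, −1.07 to −0.90 for BMP4, −0.99 to −0.86 for NOG, −0.86 to −0.65 for BAMBI, −0.54 to −0.44 for GREM1 and 0.26 to 0.44 for CHRD. The largest adjusted p among them was 0.0339, for CHRD without shControl replicate 2 (edgeR). BMP6 did not pass under any of the 15 that kept it (the filter at a CPM of 1 removed it), and its estimate ranged from −0.22 to 0.34 when single libraries were left out. It was below 0 without shControl replicate 2 (−0.096), shSmurf1 replicate 3 (−0.055) or shSmurf1 replicate 4 (−0.22), and the cause was not tested. BMP2 had a log2 ratio of mean CPM of −0.85, and without a filter edgeR put its adjusted p at 0.568. The count of all changed genes ranged from 2763 to 5348 when single libraries were left out, the highest without shSmurf1 replicate 3, and that of the other pathway genes from 11 (without shControl replicate 2) to 24 (without shSmurf1 replicate 3), against 3527 and 17. No pairing by replicate number was seen. Deviations of same-numbered libraries from their group means correlated at 0.080, 0.0014, −0.24 and 0.11. Of the 4 shControl libraries, 1 correlated best with its own number. With so few libraries these values cannot exclude a pairing. With the replicate number as a block, 7 members, 3192 genes and 15 other pathway genes passed. The alternatives for ratios, sums and neighbours were chosen after seeing the data, and with 10 neighbours per side the median around BMP4 was −0.21. Counts of 2 to 17 per library limit what can be said of BMP2 and BMP6.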
